A study of Mus musculus with 24 samples.

Results

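Islets of C57BL6/J (BL6) mice fed a high-fat diet (HFD) were compared with islets of BL6 mice fed chow. The 8 arrays compared, 4 HFD and 4 chow, were taken by their sample titles from the 24 arrays of the study, and all 8 lay on the same slide. Each array held islet RNA of 1 male mouse, and feeding began at 8 weeks of age. The labels name no transgene or other agent in either group. Fat supplied 42% of kcal in the HFD and 18% in the chow. The sample labels state 12 weeks of feeding and the series text states 16 weeks, and the files did not settle which is right. The study held 4 further groups of 4 mice, namely BL6 mice on HFD with pioglitazone at 140 mg per kg diet and C57BLKs/J (BLKS) mice on HFD, on HFD with pioglitazone and on chow. Pioglitazone activates PPAR-gamma, a nuclear receptor of fat storage.

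Islets are clusters of endocrine cells in which insulin-secreting beta cells predominate. During sustained overfeeding beta cells of the mouse raise insulin output and can re-enter the cell cycle, which inhibitors of cyclin-dependent kinases (CDKs) restrain. Immediate early genes encode mostly transcription factors that are switched on within minutes of glucose, calcium, cyclic AMP or growth factor signals, and that also respond to the handling of tissue.

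A level is given as log2 processed intensity set against the array's 75th percentile, so that 0 is that percentile. A difference is HFD minus chow on this log2 scale, with its standard error (SE) from a limma fit to all 24 arrays. A gene was called when its Benjamini-Hochberg adjusted p over 22968 genes was under 0.05. Values per array are given in the order of mice 1 to 4. In bulk islet RNA, fewer cells of a type and less RNA per cell cannot be told apart.

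The 60-base probes behind the called genes are shown because 3 array names turned out to read 1 locus and because others have no established gene behind them. Positions are those of the files, on mm9. The first 3 probes lie on the minus strand of chromosome 19 at the locus of Malat1, a nuclear long noncoding RNA also known as NEAT2. Capitals mark the 21 bases that they share.
NEAT2: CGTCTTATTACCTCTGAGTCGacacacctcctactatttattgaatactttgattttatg
Malat1: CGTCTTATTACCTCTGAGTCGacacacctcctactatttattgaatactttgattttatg
Malat1-locus lincRNA: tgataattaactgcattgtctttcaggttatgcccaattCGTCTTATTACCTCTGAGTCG
The NEAT2 and Malat1 probes were identical over 60 bases (chr19:5795713-5795772). The third (chr19:5795752-5795811) belongs to an array entry for a large intergenic noncoding RNA (lincRNA) at chr19:5771425-5848475. Values of these 3 names are therefore not independent of each other. Probes of the other called genes for which sequence is shown were the following.
Cdkn2c: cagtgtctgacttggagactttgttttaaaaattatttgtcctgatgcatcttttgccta
Lrtm2: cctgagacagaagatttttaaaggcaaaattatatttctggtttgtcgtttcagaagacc
Cpm: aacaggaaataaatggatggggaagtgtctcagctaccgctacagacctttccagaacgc
Vwa3b transcript: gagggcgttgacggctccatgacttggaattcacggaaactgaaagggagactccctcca
Npas4-side lincRNA: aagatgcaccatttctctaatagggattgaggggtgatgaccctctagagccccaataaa
Chromosome 3 lincRNA: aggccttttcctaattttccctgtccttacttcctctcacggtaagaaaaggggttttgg
Cdkn2c was read at chr4:109333508-109333567 (minus strand), Lrtm2 at chr6:119265174-119265233 (minus strand) and Cpm at chr10:117121930-117121989 (plus strand). The Vwa3b transcript, ENSMUST00000124404 in the files, was read at chr1:37120334-37120393 (plus strand). The Npas4-side lincRNA is the entry chr19:4994325-4994537, read at chr19:4994396-4994455 on the minus strand. That probe lies 9981 bases to the 5′ side of the Npas4 probe (chr19:4984356-4984415, minus strand). The chromosome 3 lincRNA is the entry chr3:95457337-95458070, read at chr3:95457377-95457436 on the minus strand.

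The islet label was checked against hormone genes. Ins2, an insulin gene, was at 9.46, 9.46, 9.15 and 9.36 in HFD islets, against 9.26, 9.26, 9.33 and 9.31 in chow islets. The arrays were of similar brightness, with 75th percentiles between 265.0 and 312.5 intensity units in HFD arrays and between 292.2 and 326.4 in chow arrays. HFD mouse 4 stood apart, with a mean correlation of 0.961 with the other 7 arrays over all genes, against 0.980 to 0.984 for those 7. The mean level of 10 lymphocyte markers was -3.34, -3.40, -3.02 and 2.22 in HFD islets, against -3.41, -3.52, 0.06 and -3.09 in chow islets, so that HFD mouse 4 and chow mouse 3 were high. The mean level of 14 markers of exocrine acinar cells was 7.04, 4.83, 7.06 and 4.49 in HFD islets, against 2.92, 7.85, 4.84 and -0.03 in chow islets, with chow mouse 4 the lowest.

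Few genes were called. They were 10 of 22968 genes (0.0435%), 4 of them higher (0.0174%) and 6 lower (0.0261%) in HFD islets. At an unadjusted p under 0.05 there were 513 higher genes (2.23%) and 742 lower genes (3.23%). These calls rest on a spread estimated over all 6 groups. With the 8 arrays of the comparison fitted alone, within their 1 slide, limma called 0 genes and 1626 had an unadjusted p under 0.05. With the 12 BL6 arrays it called 0 and 1000 had an unadjusted p under 0.05. The differences of the 10 called genes are the same in the fit of 8 arrays, where their adjusted p lay between 0.154 and 0.421. In that fit the SE was larger for A030001D16Rik (0.56 against 0.47), Egr1 (0.40 against 0.30), NEAT2, the Malat1-locus lincRNA and the chromosome 3 lincRNA. It was smaller for the other called genes, such as Cdkn2c (0.08 against 0.10).

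A030001D16Rik, a transcript with no established function, was at -1.47, -0.94, -1.04 and -0.58 in HFD islets, against -4.11, -3.79, -4.33 and -6.47 in chow islets. The groups did not overlap, and chow mouse 4 lay far below the other chow mice. The rise was 3.67 ± 0.47 (SE), or 12.7-fold (adjusted p = 0.00261), with the probe well above background on 4 of 4 HFD arrays and 3 of 4 chow arrays. Without chow mouse 4 the difference was 3.07, and with normexp, a model-based background correction, followed by quantile normalization it was 1.55, both past the threshold.

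Cdkn2c encodes p18, an inhibitor of the kinases CDK4 and CDK6 that opposes entry into the cell cycle. It was at -0.08, 0.06, 0.04 and 0.05 in HFD islets, against -0.73, -0.85, -0.55 and -0.63 in chow islets. The HFD values were tightly grouped and all above the chow values. The rise was 0.71 ± 0.10 (SE), or 1.63-fold (adjusted p = 0.00573). It stayed called whichever of the 8 arrays was left out, with differences between 0.66 and 0.76.

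The Vwa3b transcript, of a gene named for its von Willebrand factor A domain, was at -1.90, -1.95, -1.98 and -2.33 in HFD islets, against -3.14, -3.30, -3.12 and -2.95 in chow islets. Every HFD value lay above every chow value. It rose by 1.08 ± 0.14 (SE), or 2.12-fold (adjusted p = 0.00261), and was also called with each of the 8 arrays left out. With normexp and quantile normalization the difference was 0.49, also called.

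The Npas4-side lincRNA was at -3.66, -3.99, -3.92 and -3.67 in HFD islets, against -5.77, -5.08, -5.77 and -6.56 in chow islets. Its probe was well above background on 4 of 4 HFD arrays and 0 of 4 chow arrays, so the chow level is only a bound. Against such a bound this probe read 1.61-fold higher in HFD islets, with measured means of -3.81 in HFD islets and -5.79 in chow islets (adjusted p = 0.0152). This fold sets the HFD mean against, per chow array, the higher of its dimmest well-detected signal and what the probe itself read. It is not a minimum for the lincRNA. The other 2 probes of the entry differed by 0.31 and 0.62, both smaller than this fold, and were not called. They were well above background on 1 and 0 of 4 HFD arrays and on 0 chow arrays. The call was lost without chow mouse 1, chow mouse 3, chow mouse 4 or HFD mouse 4, with differences between 1.73 and 1.99 and adjusted p of up to 0.0686. With normexp and quantile normalization the difference was 0.36, smaller than this fold, and was not called (adjusted p = 0.0518). With the mean of the 3 probes it was 0.97 and was not called either (adjusted p = 0.352).

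Among the lower genes, Lrtm2 encodes a membrane protein with leucine-rich repeats. It was at -3.02, -3.19, -2.80 and -2.71 in HFD islets, against -1.91, -1.87, -2.14 and -2.18 in chow islets. The groups lay well apart. Lrtm2 changed by -0.91 ± 0.13 (SE), a level 1.88-fold higher in chow islets (adjusted p = 0.00663). It was called with each of the 8 arrays left out, but not with normexp and quantile normalization (-0.45, adjusted p = 0.0955).

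Cpm encodes carboxypeptidase M, a membrane enzyme that trims basic residues from the end of peptides. It was at 0.89, 0.76, 0.64 and 0.60 in HFD islets, against 1.19, 1.38, 1.34 and 1.52 in chow islets. Each HFD value lay below each chow value. The change was -0.63 ± 0.11 (SE; adjusted p = 0.0275). The call was lost without chow mouse 2, 3 or 4 or HFD mouse 2, 3 or 4, with differences between -0.65 and -0.58 and adjusted p between 0.0819 and 0.130. It was also lost with the acinar marker score as a covariate (-0.58, adjusted p = 0.0657) and with no filter on dim probes (0.0612).

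The Malat1 locus was lower in HFD islets. NEAT2 was at 1.58, 1.17, 0.47 and 1.03 in HFD islets, against 2.98, 2.27, 2.28 and 1.98 in chow islets. The groups did not overlap, and chow mouse 1 was the highest array. The change was -1.32 ± 0.24 (SE; adjusted p = 0.0455) for NEAT2 and -1.27 ± 0.22 (SE; adjusted p = 0.0275) for the lincRNA entry. The identical Malat1 probe differed by -1.25 ± 0.23 (SE; adjusted p = 0.0648) and did not pass. The other 2 NEAT2 probes differed by -1.28 and -1.34. Both calls were lost without chow mouse 1, 2 or 3 or HFD mouse 2, 3 or 4. In those fits NEAT2 lay between -1.35 and -1.12 (adjusted p between 0.0910 and 0.168) and the lincRNA entry between -1.34 and -1.06 (adjusted p between 0.0644 and 0.128). With the acinar marker score as a covariate neither was called (NEAT2 -1.28, adjusted p = 0.110, and the lincRNA entry -1.25, adjusted p = 0.0782), nor with no filter on dim probes (0.0765 and 0.0532). With the lymphocyte marker score as a covariate NEAT2 was not called (adjusted p = 0.0504).

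The chromosome 3 lincRNA was at -3.65, -3.51, -3.21 and -3.41 in HFD islets, against -2.89, -2.93, -2.82 and -2.98 in chow islets. The groups lay apart, and the change was -0.54 ± 0.08 (SE; adjusted p = 0.00984). Its other probe was well above background on 0 HFD arrays and 3 chow arrays, and was not called. Without chow mouse 3 the call was lost (-0.51, adjusted p = 0.0576). It was also lost with normexp and quantile normalization (-0.15, 0.548), with the mean of its probes (-0.75, 0.142) and with an intensity trend and robust variances (0.0797).

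Of the 10 called genes, A030001D16Rik, Cdkn2c, the Vwa3b transcript and Lrtm2 were also called with HFD mouse 4 and chow mouse 3 both left out, a setting chosen after seeing the data. The other 6 were not, with adjusted p between 0.133 and 0.220.

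**Figure D1:**
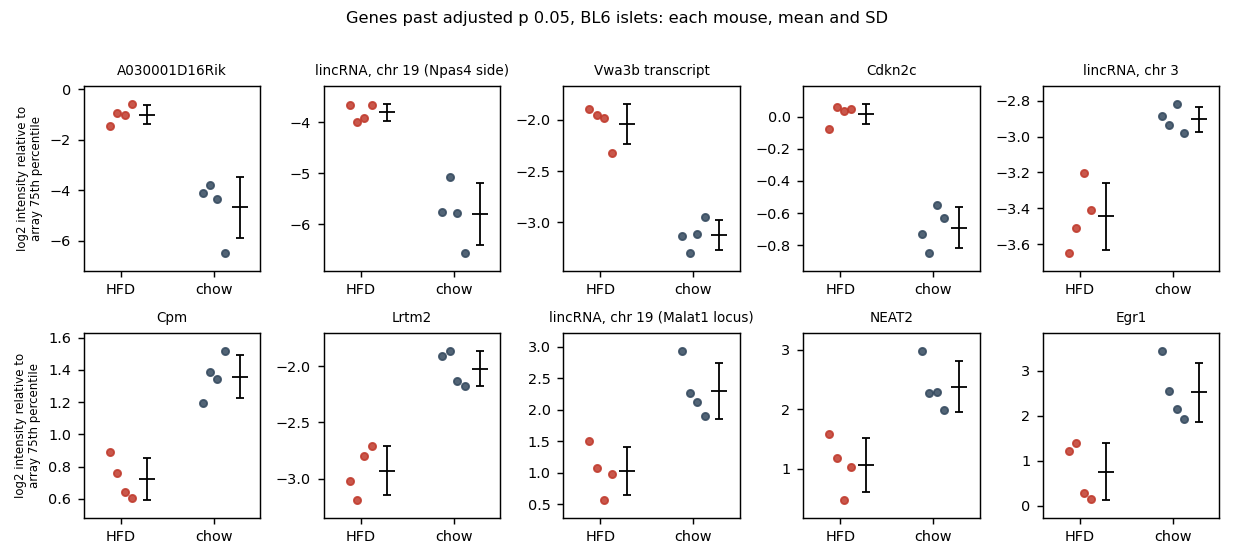
Levels of the 10 called genes in BL6 islets, as log2 intensity relative to the array's 75th percentile on the vertical axes, in each of 4 HFD mice (red) and 4 chow mice (dark blue), with group mean and SD as black bars. In every panel the 4 HFD values lie all above or all below the 4 chow values.

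Among 38 measured immediate early genes, Egr1 was the only call. Egr1, a zinc finger transcription factor, was at 1.21, 1.39, 0.30 and 0.15 in HFD islets, against 3.44, 2.55, 2.16 and 1.93 in chow islets. The groups did not overlap, and chow mouse 1 was the highest of all. The change was -1.76 ± 0.30 (SE), a level 3.39-fold higher in chow islets (adjusted p = 0.0275). The call was lost without chow mouse 1 (-1.45, adjusted p = 0.103), chow mouse 2 (-1.75, adjusted p = 0.128) or chow mouse 3 (-1.88, adjusted p = 0.0576). It was also lost without HFD mouse 3 (-1.60, adjusted p = 0.0894) or HFD mouse 4 (-1.56, adjusted p = 0.130), with the acinar marker score as a covariate (-1.80, adjusted p = 0.0557) and with no filter on dim probes (adjusted p = 0.0532). The labels give no isolation batch, so for these genes the handling of the islets and the diet cannot be told apart.

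Jun and Fos encode subunits of the transcription factor AP-1. Jun was at 4.40, 3.98, 3.16 and 3.30 in HFD islets, against 5.95, 5.12, 4.72 and 4.59 in chow islets and did not pass (-1.39 ± 0.27, adjusted p = 0.0711). Fos was at 0.27, 0.88, -0.96 and -1.24 in HFD islets, against 3.10, 1.79, 1.69 and 1.11 in chow islets and did not pass either (-2.18 ± 0.52, adjusted p = 0.190). For both genes every HFD value lay below every chow value, and chow mouse 1 was highest as it was for Egr1. Their relatives Junb (-0.64 ± 0.28) and Fosb (-0.34 ± 0.23) had overlapping groups. Klf4 and Btg2, chosen after their values were seen, differed by -0.38 and -0.22. Neither passed, and their values did not overlap between the groups.

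Npas4, a transcription factor induced by membrane depolarization and calcium entry, lay on the other side. It was at 1.46, 0.40, 0.20 and 1.41 in HFD islets, against -0.17, -0.57, -0.36 and -1.34 in chow islets. All HFD values exceeded all chow values, and the difference of 1.48 ± 0.29 (SE) did not pass (adjusted p = 0.0775). Klf10, a TGF-beta-inducible repressor, was at 1.84, 1.78, 1.46 and 1.42 in HFD islets, against 1.02, 1.12, 1.07 and 0.98 in chow islets and did not pass (0.58 ± 0.13, adjusted p = 0.163). Maff, a small leucine zipper factor chosen after its values were seen, differed by 0.55 ± 0.26. It did not pass, and its groups did not overlap. The orphan nuclear receptor Nr4a1 (0.18 ± 0.27) had overlapping groups, with chow mouse 1 again the highest array.

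Over the 38 genes the median difference was -0.10, against -0.00071 over all genes, with 17 positive (49.8% of all genes). Groups did not overlap for 3 higher and 5 lower members, against 2.65% and 2.21% of all genes. The median lay between -0.18 and -0.01 with 1 array left out.

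**Figure D2:**
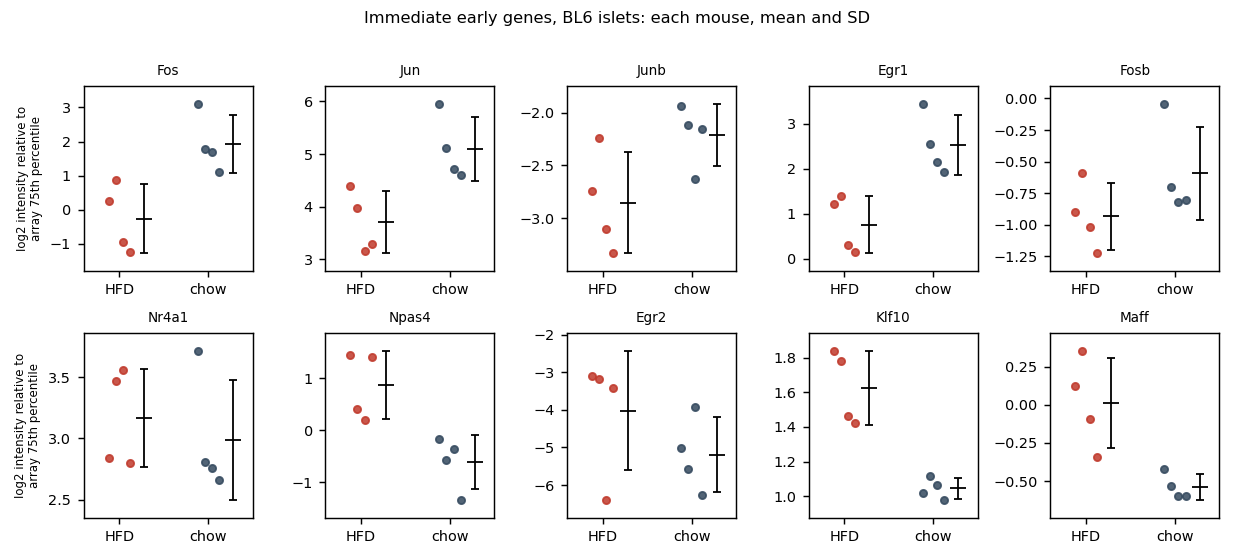
Levels of 10 immediate early genes in BL6 islets, as log2 intensity relative to the array's 75th percentile on the vertical axes, in each of 4 HFD mice (red) and 4 chow mice (dark blue), with group mean and SD as black bars. Fos, Jun and Egr1 are lower in every HFD mouse than in any chow mouse, Npas4, Klf10 and Maff are higher in every HFD mouse, and the other 4 genes overlap.

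The promoters of Fos and Npas4 are shown because these genes differed in opposite directions while both hold a cyclic AMP response element half-site. The sequences are the 250 bases before each start in RefSeq, GRCm38.p6. Capitals mark TGACG, read on either strand.
Fos promoter: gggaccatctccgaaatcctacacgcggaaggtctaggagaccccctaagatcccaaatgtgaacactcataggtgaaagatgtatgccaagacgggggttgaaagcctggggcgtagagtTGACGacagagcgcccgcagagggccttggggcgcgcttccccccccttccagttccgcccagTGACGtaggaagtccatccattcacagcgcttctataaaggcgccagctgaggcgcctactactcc
Npas4 promoter: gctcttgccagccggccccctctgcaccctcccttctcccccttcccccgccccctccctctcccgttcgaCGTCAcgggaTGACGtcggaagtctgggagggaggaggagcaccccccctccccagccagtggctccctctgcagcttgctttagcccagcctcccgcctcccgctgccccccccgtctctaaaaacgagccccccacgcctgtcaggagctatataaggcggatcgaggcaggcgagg
They lie at chr12:85473640-85473889 (plus strand) and chr19:4989972-4990221 (minus strand). The half-site is found in 19.8% of 27025 genes with a promoter in the table. A match of letters is a description and not a site. Entries were found for 28 of the 38 immediate early genes, too few for a share over the list.

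Several genes lay just outside the threshold. Rasd2, a small GTPase of the Ras family known from the striatum, was at 2.09, 1.94, 2.03 and 2.17 in HFD islets, against 1.12, 0.87, 0.77 and 0.38 in chow islets. The groups lay well apart (1.27 ± 0.23, adjusted p = 0.0509). P2ry1, a receptor for ADP that couples to calcium release, was at 4.17, 4.59, 4.32 and 4.14 in HFD islets, against 3.27, 3.11, 3.33 and 3.53 in chow islets. Again each HFD value exceeded each chow value (1.00 ± 0.20, adjusted p = 0.102). Other genes with positive differences were the transcriptional repressor Snai1 (0.74, adjusted p = 0.0718), Tmem2, now Cemip2, of hyaluronan turnover (0.59, 0.0914), the zinc finger gene Zbtb16 (1.47, 0.122), the centriolar gene Hyls1 (0.48, 0.131) and the trafficking GTPase gene Rab39 (0.67, 0.131).

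Tac1, the precursor of substance P and neurokinin A, was at -0.62, -3.90, -2.61 and -1.71 in HFD islets, against 1.19, 0.82, 0.02 and -0.04 in chow islets. The HFD values were widely spread and all below the chow values (-2.71 ± 0.53, adjusted p = 0.0711). Sytl2, a Rab27-binding protein of secretory granules, was at -4.42, -3.59, -4.44 and -4.45 in HFD islets, against -2.66, -3.44, -2.96 and -3.26 in chow islets, and was well above background on 1 of 4 HFD arrays and 4 of 4 chow arrays (-1.15 ± 0.24, adjusted p = 0.105). The groups did not overlap, although HFD mouse 2 lay close to chow mouse 2. The guidance ligand gene Sema6a differed by -0.76 (adjusted p = 0.126), the monocarboxylate transporter gene Slc16a9 by -0.64 (0.143) and Stx16, a SNARE of the trans-Golgi network, by -0.50 (0.156). Tm7sf4, now Dcstamp, was well above background on 0 HFD arrays and 3 chow arrays. Its HFD level is only a bound, so no fold is given, and it did not pass (adjusted p = 0.124).

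Some genes described so far that missed the threshold passed it when 1 array was left out. Npas4 passed without HFD mouse 3 (adjusted p = 0.0388), Zbtb16 and Tac1 without HFD mouse 1 (0.0260 and 0.0130), Sytl2 without HFD mouse 2 (0.0385) and Snai1 without chow mouse 1 (0.0389). Jun passed without HFD mouse 1 (0.0188) and also without chow mouse 4. Malat1 passed without HFD mouse 1 (0.0188) and also without chow mouse 4.

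Cell cycle genes leaned to positive differences without any call. Of 48 measured, 45 had positive differences, against 49.8% of all genes, and their median was 0.68. The limma test called 0, and 6 had an unadjusted p under 0.05, all higher, against 2.23% of all genes. In 10 members the 4 HFD values lay above the 4 chow values, against 2.65% of all genes. Ccne1, the cyclin of S phase entry, was at 1.14, 0.98, 0.65 and 1.21 in HFD islets, against 0.28, 0.33, 0.44 and 0.39 in chow islets (0.63 ± 0.17, adjusted p = 0.289). E2f1, a transcription factor of the same transition, was at 0.13, 0.47, 0.52 and 0.05 in HFD islets, against -0.03, -0.24, -0.10 and -0.29 in chow islets (0.45 ± 0.12, adjusted p = 0.306). Both had higher values in every HFD mouse than in any chow mouse.

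Among mitotic genes, Prc1, which bundles microtubules of the central spindle, was at -0.30, 0.28, 0.08 and -0.03 in HFD islets, against -1.31, -1.32, -0.60 and -0.57 in chow islets (0.96 ± 0.31, adjusted p = 0.542). The mitotic kinase genes Aurka (0.79 ± 0.36) and Plk1 (1.09 ± 0.57) and the cytokinesis gene Anln (0.69 ± 0.32) also had groups that lay apart. Mki67, a marker of cycling cells, was at -0.70, 0.32, 0.32 and 1.63 in HFD islets, against -1.81, -1.61, 0.04 and -0.87 in chow islets (1.45 ± 0.82, adjusted p = 0.967). Its groups overlapped, and HFD mouse 4 and chow mouse 3 were the highest of their groups. The replication gene Pcna (0.01 ± 0.14) and the thymidylate synthase gene Tyms (-0.19 ± 0.13) overlapped too.

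The mean level of the 48 genes was -1.80, -1.29, -1.28 and -0.73 in HFD islets, against -2.32, -2.25, -1.54 and -1.78 in chow islets. The highest array of each group, HFD mouse 4 and chow mouse 3, was also the one with the highest lymphocyte markers. Those markers differed by a median of 0.64, by -0.81 without HFD mouse 4 and by 1.84 without chow mouse 3. Without both arrays the cell cycle median was 0.63 and the lymphocyte median 0.20. With 1 array left out the cell cycle median lay between 0.53 and 0.88.

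Promoters of these genes often held CCAAT, the box bound by the factor NF-Y. It stood on either strand within 250 bases of the start in 32 of 42 members with an entry (76.2%), against 37.5% of 27025 genes. The letters TTTGAA of the cell cycle gene homology region stood in 12 of 42 (28.6%), against 18.3%. A gene with several starts was counted when any of them held the letters. No test was made of these shares. The Prc1 promoter is shown as a member that holds both, in capitals, from RefSeq at chr7:80294226-80294475 (plus strand, GRCm38.p6). Its other start in the table, with a window at chr7:80294201-80294450, holds CCAAT and not TTTGAA.
Prc1 promoter: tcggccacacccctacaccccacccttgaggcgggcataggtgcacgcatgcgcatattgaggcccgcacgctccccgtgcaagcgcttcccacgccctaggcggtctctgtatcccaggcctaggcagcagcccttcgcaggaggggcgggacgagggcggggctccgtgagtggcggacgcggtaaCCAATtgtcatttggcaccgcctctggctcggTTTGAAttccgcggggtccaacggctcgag

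Among 16 CDK inhibitors, D cyclins and their partners, Cdkn2c was the only call and the median was 0.02 (between -0.01 and 0.06 with 1 array left out). At an unadjusted p under 0.05 there were 4 higher members and 1 lower, against 2.23% and 3.23% of all genes. Cdkn1a, which encodes the p53-induced inhibitor p21, was at 1.57, 1.46, 1.20 and 1.59 in HFD islets, against 0.85, 0.65, 0.89 and 0.82 in chow islets. Its groups lay apart, but it did not pass (0.65 ± 0.17, adjusted p = 0.285). Cdkn2a, whose product p16 accumulates with age in mouse beta cells, was at -2.22, -2.33, -1.95 and -1.74 in HFD islets, against -2.90, -3.27, -2.26 and -2.82 in chow islets (0.75 ± 0.24, adjusted p = 0.496), with 1 chow value inside the HFD range. Ccnd2, the D cyclin on which beta-cell division in mice depends, was at 6.28, 6.60, 6.40 and 6.17 in HFD islets, against 6.14, 6.09, 6.16 and 6.13 in chow islets. The margin was small (0.23 ± 0.12, adjusted p = 0.951). Cdkn1b (0.04 ± 0.12), Cdkn2d (0.02 ± 0.10) and Cdk4 (-0.06 ± 0.08) had overlapping groups. The lowest difference of the list was that of Cdk2 (-0.53), also with overlapping groups.

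**Figure D3:**
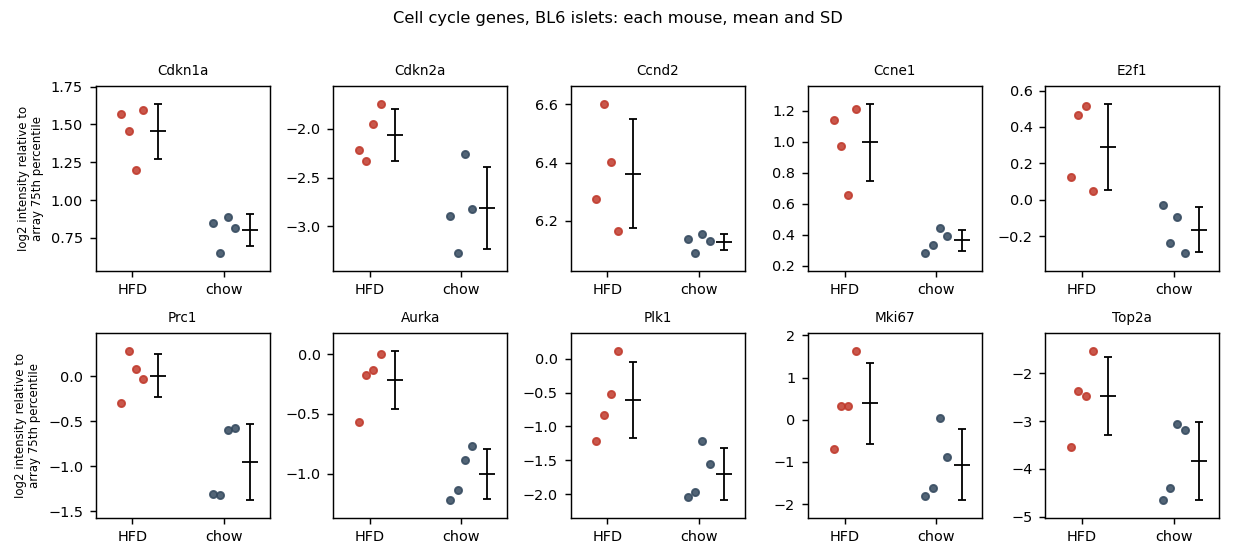
Levels of 10 cell cycle genes in BL6 islets, as log2 intensity relative to the array's 75th percentile on the vertical axes, in each of 4 HFD mice (red) and 4 chow mice (dark blue), with group mean and SD as black bars. Cdkn1a, Ccnd2, Ccne1, E2f1, Prc1, Aurka and Plk1 are higher in every HFD mouse, and Cdkn2a, Mki67 and Top2a overlap between the groups.

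Hormone genes had overlapping groups. Ins1 differed by 0.03 ± 0.16, Ins2 by 0.07 ± 0.15, Iapp by 0.07 ± 0.14, Gcg by -0.04 ± 0.14, Sst by -0.10 ± 0.14 and Ppy by -0.42 ± 0.46 (SE). Of 20 genes of hormones and prohormone processing limma called 0 and 1 had an unadjusted p under 0.05. It was Vgf, the source of several secreted peptides, at 2.83, 3.42, 3.48 and 2.95 in HFD islets, against 2.75, 2.33, 2.85 and 2.54 in chow islets (0.55 ± 0.21, adjusted p = 0.712). A single HFD value lay inside the chow range.

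Of 20 beta-cell transcription factors, 6 had positive differences, against 49.8% of all genes, and 14 had negative ones. Their median was -0.12 (between -0.14 and -0.09 with 1 array left out). The limma test called 0, and 3 had an unadjusted p under 0.05, all lower, against 3.23% of all genes. Hnf4a, a regulator of metabolic genes, was at 2.03, 2.23, 2.11 and 1.84 in HFD islets, against 2.51, 2.81, 2.35 and 2.51 in chow islets (-0.49 ± 0.21, adjusted p = 0.853). Nkx2-2, a regulator of endocrine identity, was at 2.96, 3.14, 3.11 and 2.79 in HFD islets, against 3.22, 3.30, 3.31 and 3.23 in chow islets (-0.26 ± 0.12, adjusted p = 0.889). Both lay lower in every HFD mouse. Over the list, groups did not overlap for 1 higher and 2 lower members, against 2.65% and 2.21% of all genes. Mafa, an activator of insulin transcription, differed by -0.27 ± 0.11 with 1 HFD value inside the chow range, and Pdx1, a central beta-cell regulator, by 0.03 ± 0.13.

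Of 20 genes of glucose sensing, limma called 0 and 3 had an unadjusted p under 0.05. Of these 1 was higher and 2 were lower, against 2.23% and 3.23% of all genes. Slc2a1, the widely expressed glucose transporter, was at 0.30, 0.38, 0.10 and 0.19 in HFD islets, against 0.64, 0.51, 0.61 and 0.65 in chow islets (-0.36 ± 0.09, adjusted p = 0.190). G6pc2, an islet glucose-6-phosphatase, was at 7.10, 7.33, 7.12 and 6.98 in HFD islets, against 6.82, 6.62, 6.64 and 6.67 in chow islets (0.45 ± 0.16, adjusted p = 0.623). The groups of both genes lay apart, in opposite directions. The groups of Slc2a2, the main glucose transporter of mouse beta cells, overlapped (-0.03 ± 0.13).

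Among 27 genes of fatty acid oxidation and PPAR targets the median was 0.03 (between -0.00 and 0.10 with 1 array left out). The limma test called 0, and 3 had an unadjusted p under 0.05, all higher, against 2.23% of all genes. Cpt1a, which admits long-chain fatty acids to mitochondria, was at 2.12, 2.26, 2.39 and 2.13 in HFD islets, against 1.55, 1.69, 1.61 and 1.83 in chow islets (0.55 ± 0.12, adjusted p = 0.152). Plin2, a coat protein of lipid droplets, was at 2.29, 2.23, 2.02 and 2.30 in HFD islets, against 1.87, 1.75, 1.81 and 1.76 in chow islets (0.41 ± 0.14, adjusted p = 0.612). Both were higher in every HFD mouse. Angptl4, an inhibitor of lipoprotein lipase, differed by 1.30 ± 0.45 with overlapping groups. The 16 fatty acid synthesis genes had a median of 0.06 and the 25 cholesterol genes one of 0.08. Limma called 0 in each list, with 0 and 1 members at an unadjusted p under 0.05.

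The 39 genes of the respiratory chain and ATP synthase had 34 positive differences, against 49.8% of all genes. These differences were small, with a median of 0.06 and a highest value of 0.17 for the ATP synthase gene Atp5d. Limma called 0 and 0 had an unadjusted p under 0.05. Their mean level lay between 5.07 and 5.33 in HFD islets and between 5.08 and 5.23 in chow islets, which overlap. Of 30 genes of the unfolded protein response and chaperones, limma called 0 and 1 had an unadjusted p under 0.05. It was Chac1, which degrades glutathione (0.53 ± 0.20, adjusted p = 0.679).

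Limma also called 0 of 18 antioxidant and metallothionein genes. At an unadjusted p under 0.05 there were 3, all lower, against 3.23% of all genes. Mt2, a metallothionein that binds zinc, was at 7.05, 6.44, 5.88 and 6.48 in HFD islets, against 7.02, 7.28, 7.06 and 6.96 in chow islets (-0.62 ± 0.19, adjusted p = 0.488), with 1 HFD value inside the chow range. Gpx3, a secreted glutathione peroxidase, was at 3.74, 4.43, 4.46 and 4.44 in HFD islets, against 4.58, 4.65, 4.74 and 4.69 in chow islets (-0.40 ± 0.14, adjusted p = 0.652), lower in every HFD mouse. Of 26 granule exocytosis genes, which include Sytl2, limma called 0 and 2 had an unadjusted p under 0.05. Both were lower, against 3.23% of all genes. Of 19 genes that mature beta cells keep low or that mark dedifferentiation, limma called 0 and 1 had an unadjusted p under 0.05. Aldh1a3, a retinaldehyde dehydrogenase of dedifferentiated mouse beta cells, was at -0.63, -0.03, 0.36 and 0.06 in HFD islets, against -0.61, -1.47, -0.31 and -1.40 in chow islets (0.89 ± 0.43, adjusted p = 0.921), with overlapping groups.

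Of 19 clock genes limma called 0 and 5 had an unadjusted p under 0.05. Of these 2 were higher and 3 lower, against 2.23% and 3.23% of all genes. Arntl, the core activator Bmal1, was at 0.66, 0.91, 0.62 and 0.44 in HFD islets, against 1.16, 1.09, 1.12 and 1.06 in chow islets (-0.45 ± 0.13, adjusted p = 0.387). Nfil3, a repressor in the same network, was at 3.03, 3.25, 2.74 and 2.81 in HFD islets, against 3.63, 3.50, 3.40 and 3.40 in chow islets (-0.52 ± 0.14, adjusted p = 0.283). Both lay lower in every HFD mouse. Per3 (0.90 ± 0.31) and Nr1d2 (0.49 ± 0.18), a period gene and a repressor of Arntl, lay higher in every HFD mouse, with the Per3 probe well above background on 4 of 4 HFD arrays and 3 of 4 chow arrays. The hour of islet isolation is not given in the sources used here, so time of day and diet cannot be told apart.

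Of 10 macrophage markers, 9 had positive differences, against 49.8% of all genes. Limma called 0 and 4 had an unadjusted p under 0.05, all higher, against 2.23% of all genes. The summed linear level of the markers was taken in multiples of the array's 75th percentile. It lay between 26.1 and 35.1 in HFD islets and between 21.2 and 23.4 in chow islets, ranges that do not overlap. The median difference was 0.65, and groups lay apart for 6 markers, all higher, against 2.65% of all genes. Trem2, a lipid receptor of macrophages, was at -1.04, -0.77, -1.04 and -0.62 in HFD islets, against -1.38, -1.68, -1.60 and -1.60 in chow islets (0.70 ± 0.17, adjusted p = 0.238). The complement genes C1qb (0.63 ± 0.24) and C1qc (0.67 ± 0.29) also lay higher in every HFD mouse. Their relative C1qa had the lowest difference of the markers (-0.003). Without HFD mouse 4 and chow mouse 3 the median was 0.54. The part of macrophages in the values of the other genes was not tested.

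The 14 acinar markers had a median of 2.02, which was 0.68 without chow mouse 4 and 3.39 without chow mouse 2. Their summed level overlapped, between 529.7 and 2447.3 in HFD islets and between 23.4 and 3807.3 in chow islets. Limma called 0 of them, and 0 had an unadjusted p under 0.05. Beta-cell markers had a summed level between 2119.6 and 2610.5 in HFD islets and between 2232.2 and 2377.9 in chow islets. Alpha-cell markers lay between 727.6 and 968.0 in HFD islets and between 862.4 and 998.8 in chow islets. Endothelial markers had a median of 0.04 over 6 genes.

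**Figure D4:**
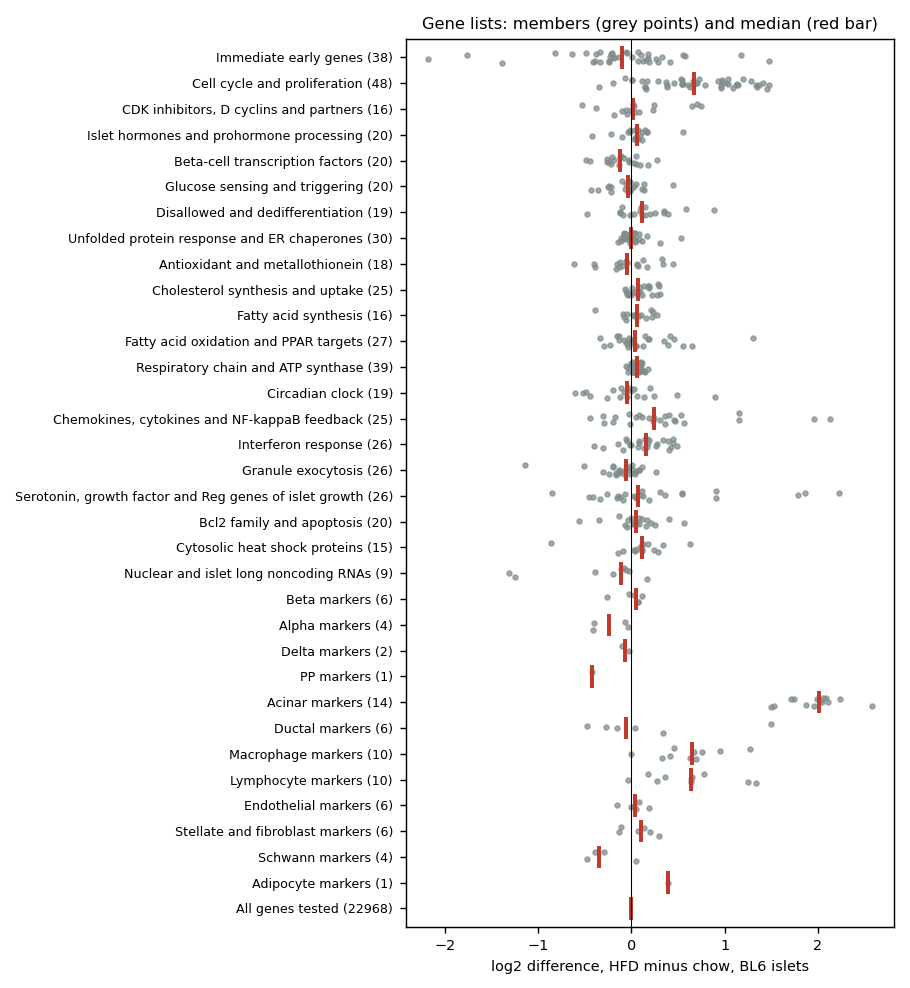
Log2 difference, HFD minus chow, in BL6 islets on the horizontal axis for the members of each gene list (grey points, number measured in brackets) and for the median of each list and of all genes (red bar). Acinar, cell cycle, macrophage and lymphocyte lists have medians of 2.02, 0.68, 0.65 and 0.64, while most metabolic lists lie close to 0.

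BLKS mice were on the same diets, and the BL6 diet difference minus the BLKS one was tested. Limma called 0 of 22968 genes (0%), and 1947 (8.48%) had an unadjusted p under 0.05. Among the 10 genes called in BL6 the lowest adjusted p of this test was that of Cdkn2c (0.0818), which differed by 0.71 ± 0.10 in BL6 and -0.16 ± 0.10 in BLKS. Its BLKS level lay between -1.44 and -0.89 on HFD and between -0.98 and -0.86 on chow. A030001D16Rik differed by 3.67 ± 0.47 in BL6 and 0.12 ± 0.47 in BLKS (adjusted p = 0.102). Egr1 differed by -1.76 ± 0.30 in BL6 and -0.23 ± 0.30 in BLKS (adjusted p = 0.267), and Cpm by -0.63 ± 0.11 and -0.44 ± 0.11 (adjusted p = 0.763). The 8 BL6 arrays compared lay on slide 1, the BLKS arrays on HFD on slide 3 and those on chow on slides 2 and 4. In BLKS the diet and the slide therefore cannot be told apart, and this holds for the strain test that uses the BLKS difference.

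Levels are given side by side without a test for the groups on other slides. Egr1 lay between 5.67 and 6.40 in BLKS islets on HFD and between 6.07 and 6.30 on chow. NEAT2 lay between 4.35 and 4.68 in BLKS islets on HFD and between 3.77 and 4.41 on chow. Both were above every BL6 array of either diet. In BL6 islets on HFD with pioglitazone, A030001D16Rik lay between -6.78 and -4.35 and Npas4 between -1.39 and -0.25, in both cases below every BL6 mouse on HFD alone. The A030001D16Rik probe was well above background on 0 of those 4 arrays, so its values there are only a bound. Egr1 lay between 0.63 and 1.66 there, overlapping HFD alone.

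**Figure D5:**
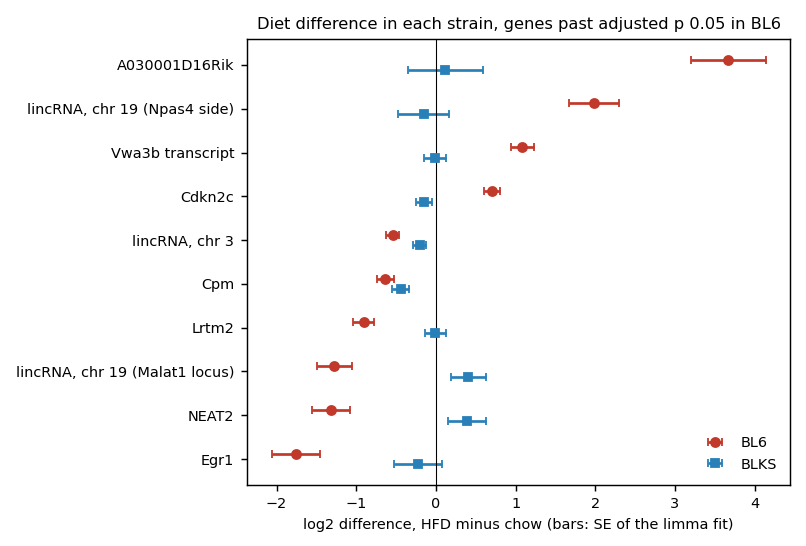
Log2 difference, HFD minus chow, on the horizontal axis with the SE of the limma fit as bars, for the 10 genes called in BL6 islets, in BL6 (red circles) and in BLKS (blue squares). A030001D16Rik is at 3.67 in BL6 and 0.12 in BLKS. Cpm, the chromosome 3 lincRNA, Egr1 and Lrtm2 are negative in both strains, with Lrtm2 at -0.01 in BLKS.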

How the data were processed

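Islet RNA of 24 mice was hybridised in 1 colour (Cy3) to Agilent arrays of 62976 spots. Per the file headers, processed intensity was made with Feature Extraction 10.7.3.1, which subtracts background within the array, and probe positions are on mm9. The deposited value table, used only as an alternative, holds a ratio of each array's processed signal to that array's median, found by setting it against the scanner values. No saturated spots were found.

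From the deposited intensities, log2 values were computed, averaged over unflagged spots of a probe and reduced by the array's 75th percentile. Probes well above background on at least 4 of 24 arrays were kept (32750), and the brightest probe of each name was used (22968 genes, of which 6653 had several kept probes). Group means were fitted with limma 3.58.1 in R 4.3.3 over all 24 arrays, with Benjamini-Hochberg adjustment over all genes. Groups came from the sample titles, and p-values rest on the spread between mice within groups, pooled over all 6 groups. BL6 mice on HFD with pioglitazone and BLKS mice on chow each lay on 2 slides, so this spread can include slide differences. The number of arrays limits the precision. The procedure was tested on simulated data with independent normal noise. Those data held no slide effect or outlying array, so the procedure was not tested under such conditions.

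Members, gene lists and the naming rule were chosen with earlier results of these data known. Named genes are all called genes, the 8 of smallest p in each direction that did not pass, leaving out clone, lincRNA, predicted and accession names, up to 4 members of smallest p in each list, and a set of hormone, beta-cell, immediate early and cell cycle genes. Anln, Btg2, Cdk4, Cdkn2d, Klf4, Maff, Nr1d2, Pcna, Plk1 and Tyms fall outside this rule and were chosen after their values were seen. Cdk2 and C1qa are named as the lowest members of their lists. Of 594 list entries 589 had a gene on the array, and 27307 of 55626 probes (49.1%) matched a current symbol by accession. Alternatives were other normalizations, filters, probe summaries and variance models, array weights, slide and replicate blocks, cell marker covariates, fewer arrays and each array left out. BL6 and BLKS mice on HFD with pioglitazone entered the fit for its spread. Sequence of genes on chromosome 18 is not reported here.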

Additional observations from a re-analysis of the deposited data

Results flagged for a closer look

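In groups of 4, a highest or lowest array was taken as far from the others when its gap to the nearest one divided by the group's range exceeded Dixon's critical value. Of 168 groups of values 15 met this, and chance gives about 1 in 20.

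Among HFD islets, Cdkn2c met it at 0.839 of the range with mouse 1 lowest (-0.08, 0.06, 0.04 and 0.05), and Nkx6-1 at 0.835 with mouse 1 highest. Sytl2 met it at 0.973, with mouse 2 highest and the only one well above background. The lymphocyte marker mean met it at 0.932 and the mean correlation with the other 7 arrays at 0.869, high and low in mouse 4.

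Among chow islets, mouse 1 was highest for Fosb (0.846), Nr4a1 (0.864) and Snai1 (0.842), and lowest for Ppy (0.863), which is also the only marker of pancreatic polypeptide cells measured (0.863). Mouse 2 was highest for Hyls1 (0.868) and for the mean of the fatty acid synthesis list (0.914). The lymphocyte marker mean was highest in mouse 3 (0.881). Mouse 4 was highest for the mean of the fatty acid oxidation list (0.924), at 0.62 against 0.60 in the other chow mice, and lowest for the delta-cell marker mean (0.847).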

How the results depend on the processing

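The count of 10 called genes became 16 with quantile normalization, 16 with the deposited value table, 6 with no filter, 39 with array quality weights and 6 when the acinar score entered as a covariate. It was 0 with only the 8 arrays compared and 0 with only the 12 BL6 arrays. There the spread is estimated from fewer arrays and from BL6 mice alone. With HFD mouse 4 and chow mouse 3 both left out, a setting chosen after seeing the data, it was 4. With 1 array left out it lay between 4 (without chow mouse 3) and 18 (without HFD mouse 1), with 6 without chow mouse 2 and 5 without HFD mouse 4. With normexp and quantile normalization 8 higher and 7 lower genes were called, 53.3% higher, against 40% in the setting reported. The other settings gave between 10 and 15 calls. HFD and chow mice of the same replicate number had correlations of 0.13, 0.17, -0.26 and -0.10 over all genes. The highest of any pair was 0.54, for HFD mouse 4 and chow mouse 3, the arrays of highest lymphocyte markers. Such whole-array correlations cannot settle whether the numbers paired the mice. A fit with the replicate block called 15 genes.

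The 0 genes called for the strain difference became 2 with quantile normalization, 11 with normexp and quantile normalization, 4 with the replicate block, and between 0 and 1 with 1 array left out. The cause of these shifts was not tested. Over 155 named genes and up to 23 settings, 3425 values kept direction and side of the threshold, 55 passed it only under the alternative, 69 no longer passed and 0 changed sign while called. Of the list medians 756 moved by less than 1 SD between mice. The others were the CDK inhibitor list at 0.10 without HFD mouse 4 and chow mouse 3, the fatty acid oxidation list at 0.10 without HFD mouse 4 and the macrophage markers at 0.42 with normexp and quantile normalization. Genes dim in 1 group, such as the Npas4-side lincRNA in chow islets, are limited by signal over background.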

Other observations

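Of 25 genes of chemokines, cytokines and NF-kappaB feedback, 18 had positive differences, against 49.8% of all genes. Limma called 0, with 3 higher and 1 lower at an unadjusted p under 0.05, against 2.23% and 3.23% of all genes. The list had a median of 0.24. The median was 0.07 with HFD mouse 4 and chow mouse 3, the arrays of highest lymphocyte markers, both left out. It was 0.42 without HFD mouse 3, 0.39 without chow mouse 4 and 0.17 without HFD mouse 4. Tnfaip3, a feedback inhibitor of NF-kappaB also known as A20, was at 1.29, 0.88, -0.35 and 0.45 in HFD islets, against -0.51, -0.76, -0.43 and -0.63 in chow islets (1.15 ± 0.38, adjusted p = 0.554). Socs3, a feedback inhibitor of cytokine signalling, was at 0.51, 0.72, 0.82 and 0.99 in HFD islets, against 1.47, 1.14, 1.18 and 1.03 in chow islets (-0.44 ± 0.18, adjusted p = 0.798). The groups of both lay apart by small margins, in opposite directions. Over the list, groups did not overlap for 1 higher and 1 lower member, against 2.65% and 2.21% of all genes. Ccl5, a chemokine made by T cells, was at 1.62, 0.78, 0.80 and 3.05 in HFD islets, against -1.63, -0.52, -0.24 and 0.80 in chow islets (1.96 ± 0.76, adjusted p = 0.743). It was highest in HFD mouse 4, the array with the highest lymphocyte markers. Among chow islets Ccl5 was highest in mouse 4, while those markers were highest in mouse 3. The part of lymphocytes in the Ccl5 values was not tested. The 26 interferon response genes had a median of 0.15, and limma called 0, with 0 at an unadjusted p under 0.05. That median was 0.01 without chow mouse 1, 0.08 without HFD mouse 2, 0.09 without chow mouse 3, 0.24 without HFD mouse 3 and 0.26 without chow mouse 4.

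Among genes of islet growth, Igf2, a growth factor, was at -4.08, -4.59, -4.66 and -4.51 in HFD islets, against -3.70, -3.40, -3.76 and -3.58 in chow islets. Its probe was well above background on 0 HFD arrays and 4 chow arrays, so the HFD level is only a bound. Against that bound the level was 1.58-fold higher in chow islets, with measured means of -4.46 in HFD islets and -3.61 in chow islets, and Igf2 did not pass (adjusted p = 0.556). Egfr, the receptor for epidermal growth factor, was at 0.77, 1.20, 0.99 and 1.02 in HFD islets, against 0.71, 0.60, 0.54 and 0.67 in chow islets (0.36 ± 0.16, adjusted p = 0.873). Egfr did not pass either, although its groups lay apart. Over the 26 measured genes of this list the median difference was 0.07, and limma called 0. Groups did not overlap for 1 higher and 1 lower member, against 2.65% and 2.21% of all genes. Reg1, a secreted protein of acinar cells and regenerating islets, was at 4.57, 2.34, 5.60 and 2.98 in HFD islets, against 1.75, 5.82, 2.92 and -2.44 in chow islets (1.86 ± 2.03, adjusted p = 0.974). It was lowest in chow mouse 4 and highest in chow mouse 2, as were the acinar markers, and their part in its values was not tested.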
